A study of Mus musculus with 16 samples.

Results

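Expression of 10 immediate early genes was followed through proteasome inhibition in NIH3T3 cells, a mouse fibroblast line. They were Fos, Fosl1, Jun, Junb, Egr1, Ier2, Ier3, Ier5, Myc and Phlda1, taken by symbol from the 23356 genes of the deposited tables, and all 10 were found. The cells of every group, controls included, were from a line stably expressing DD-sfGFP, a destabilizing domain fused to superfolder GFP. Untreated control cells (0 min) were compared with cells exposed to bortezomib, an inhibitor of the proteasome, for 45, 135 or 405 min. Each of the 4 groups had 4 replicate libraries, 16 in all. Nothing in the labels states whether replicates came from separate cultures, so p-values measure only the spread between these libraries. No dose is given in the labels, and no vehicle-treated cells were analysed here, so drug and elapsed time cannot be told apart.

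Immediate early genes are transcribed within minutes of a signal, from promoters that need no new protein synthesis. Growth factors and stresses reach them through MAP kinases, serum response factor with its ternary complex partners, and CREB-family factors. Jun, Junb, Fos and Fosl1 encode subunits of AP-1, a dimeric factor. Egr1 and Myc encode a zinc finger factor and a bHLH factor that dimerizes with Max. Ier2, Ier3, Ier5 and Phlda1 encode small proteins that serum or stress also induces. Many of these transcripts and proteins are short-lived, and c-Jun, c-Fos and c-Myc are known substrates of the proteasome.

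RefSeq promoters (GRCm38.p6) of 5 of the 10 genes were used here, and 3 are shown, picked by the levels given next. Differences between members, and any link from motif to level, were not tested. Jun had the highest median level per length, Fos one of the lowest, and Ier3 was high in 2 late libraries. Each run is the 250 bases before the transcription start, 5′ to 3′ on the gene's strand, with capitals marking the motif matches described next.
Jun: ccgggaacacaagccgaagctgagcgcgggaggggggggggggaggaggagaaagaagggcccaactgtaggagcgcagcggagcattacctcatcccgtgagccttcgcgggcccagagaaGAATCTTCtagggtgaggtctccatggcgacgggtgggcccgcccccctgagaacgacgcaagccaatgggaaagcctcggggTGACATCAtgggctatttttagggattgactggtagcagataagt
Fos: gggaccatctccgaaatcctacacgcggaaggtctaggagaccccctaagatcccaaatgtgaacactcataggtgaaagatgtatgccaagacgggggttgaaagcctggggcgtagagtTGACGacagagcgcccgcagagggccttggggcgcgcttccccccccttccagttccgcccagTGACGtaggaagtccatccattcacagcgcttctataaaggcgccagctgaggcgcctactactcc
Ier3: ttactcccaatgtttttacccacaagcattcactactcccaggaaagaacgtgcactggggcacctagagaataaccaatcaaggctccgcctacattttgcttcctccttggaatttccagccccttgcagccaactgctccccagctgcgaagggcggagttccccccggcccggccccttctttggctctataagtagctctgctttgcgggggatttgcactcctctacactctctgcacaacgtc
The Jun run is chr4:95052223-95052472 on the minus strand, the Fos run chr12:85473640-85473889 on the plus strand and the Ier3 run chr17:35821463-35821712 on the plus strand. Motifs were searched on both strands in windows that ran from 250 bases before to 50 after the start. Jun held TGACATCA, a match to the 8-base AP-1 or CRE motif TGACNTCA, with its first base at -45, and 8.83% of 32851 promoters of this length held that motif. It also held GAATCTTC at -128, a match to GAANNTTC, a pair of heat shock element units in inverted orientation, which was present in 7.86% of promoters. Fos held the CRE core TGACG at -129 and -66, and Junb held it at -106. That core was present in 20.8% of promoters. No window of the 5 held the 7-base AP-1 motif TGANTCA (7.81% of promoters) or a CArG box, the serum response factor site (1.63%). Sites further upstream lie outside these windows and were not searched, so their absence from the genes is not shown. The Ier3 run shows no capitals because it held none of these motifs in the window.

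The 16 libraries stood in 2 classes that cut across the times. The share of fragments in 97 genes with ribosomal protein symbols (which also take in the Rps6k kinases) was 4.25% to 9.42% in 7 libraries and 0.398% to 1.21% in the other 9. Over 4% were replicates 1 and 2 of the 45 min group, replicates 1 and 2 of the 135 min group, and replicates 1, 3 and 4 of the 405 min group. No control library was over 4%. They held 1385229 to 19930375 fragments, against 570323 to 1469951 in the others. The summed level of 15 fibroblast markers was 4124 to 24807 CPM (fragments scaled to 1000000 assigned to genes per library) over 4% and 565 to 2087 CPM in the others. Summed markers of epithelial cells ran the other way, at 0.381 to 148 CPM against 207 to 314 CPM. Immune markers were at 1.96 to 105 against 102 to 254 CPM, endothelial markers at 0.598 to 160 against 239 to 491 CPM, and neuronal markers at 15.8 to 161 against 117 to 316 CPM. All markers were detected in at least 1 library. All libraries were from 1 cell line, so these sums are not read as numbers of cells of a type. Olfactory and vomeronasal receptor genes held 0.00531% to 2.61% of fragments over 4% and 4.14% to 5.12% in the others. The part of this composition in the results below was not tested. Values within a class are given beside the pooled ones.

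Levels between genes were compared per length, in the deposited FPKM. As a reference for signal from genes that fibroblasts are not known to use, each value was set beside 1438 olfactory and vomeronasal receptor genes of the same library. In the 7 libraries over 4%, 53 of 70 member values lay above the 95th percentile of the receptor genes. In the other 9, 8 of 90 values did, and in the 4 controls 6 of 40. That percentile itself was 0 to 18.4 FPKM over 4% and 21.6 to 55.3 FPKM in the others, so in 45 min replicate 1, where it was 0, any fragment counted as above. In 405 min replicate 4 it was 0.0736 FPKM, so very low values also counted. All 10 members were counted as above in both libraries. The receptor genes' median FPKM was 0 to 4.24 over 4% and 0 to 10.4 in the others. The controls thus gave member levels that for 34 of 40 values were within the range of the receptor genes, and a fold change against them compares with that level.

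**Figure D1:**
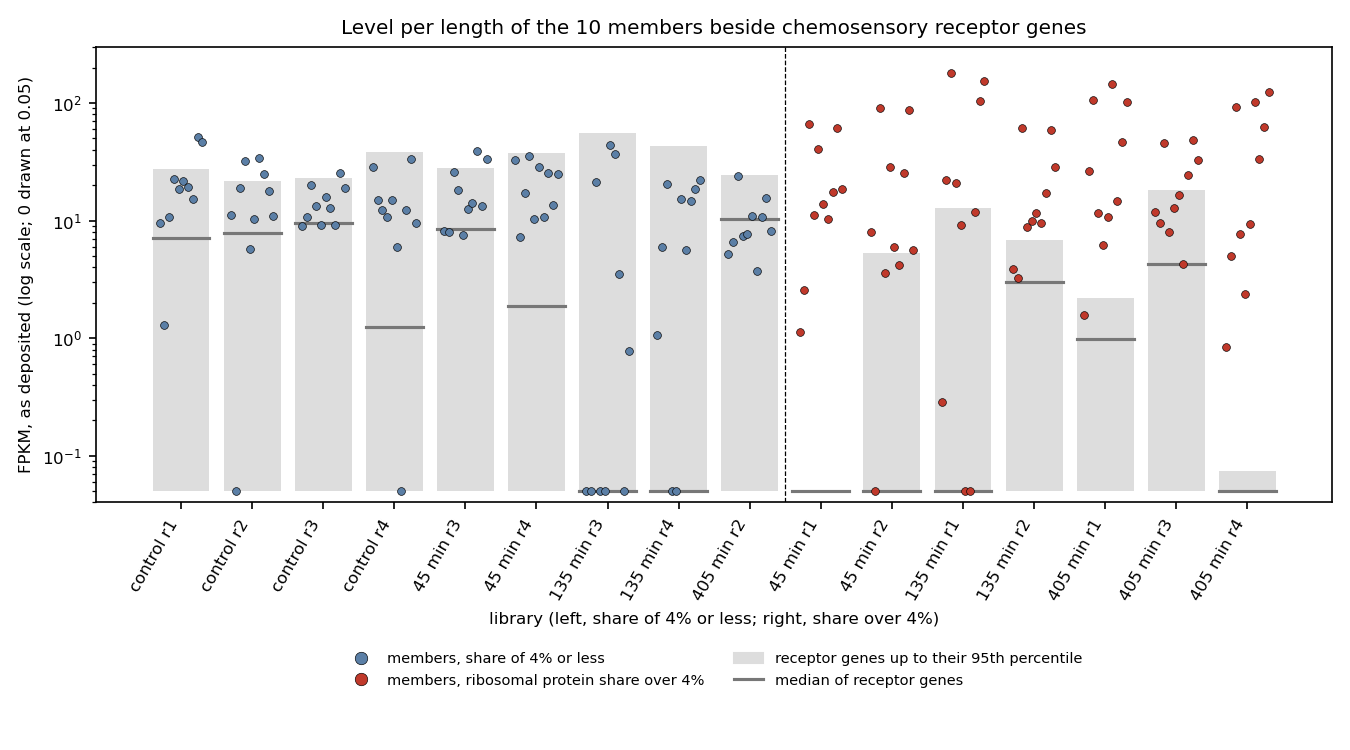
FPKM of the 10 members (points, log scale) in each library beside the receptor genes of that library (grey bar up to their 95th percentile, line at their median). In the libraries over 4%, on the right, 53 of 70 points lie above the bar, and on the left 8 of 90.

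Over the 7 libraries above 4%, Jun had the highest median FPKM, 91.5 (46.1 to 180), and Myc the next, 61.5 (46.6 to 105). Phlda1 followed at 32.6 (5.61 to 154) and Ier5 at 17.4 (11.8 to 33.1). Ier2, Egr1, Ier3 and Junb had medians of 10.7, 9.97, 9.58 and 8.88, and their ranges overlapped throughout. Fosl1 was at 5.0 (0 to 26.4) and Fos lowest at 1.59 (0.285 to 11.9). Jun, Myc and Phlda1 lay above the receptor genes' 95th percentile in 7 of 7 of these libraries, Ier5 in 6 and Fos in 3. The 3 for Fos include 45 min replicate 1 and 405 min replicate 4, where that percentile was 0 and 0.0736 FPKM. Neighbours in this order overlapped in range in every case. In the other 9 libraries Jun was again highest, at a median of 20.2 (10.7 to 25.8), and was in 0 of 9 above the receptor genes' 95th percentile.

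Each time was first compared with control over all 16 libraries. Fold changes from edgeR carry library scaling factors (TMM), which the printed CPM do not. These factors were 1.28 to 1.48 in controls and 0.385, 1.28, 0.972 and 0.559 in 405 min replicates 1 to 4. Across the 22359 genes with any fragment, no member passed edgeR's quasi-likelihood test at an adjusted p under 0.05, and over all genes 0%, 0% and 0.00447% passed for 45, 135 and 405 min. When p was left unadjusted with a limit of 0.05, the members under it were Jun for the 135 min group and Jun, Phlda1 and Ier3 for the 405 min group. Of all 22359 genes, 1853, 811 and 2064 were under it for the 3 times in order. The members' median log2 fold change was 0.15, -0.07 and 1.47 for the 3 times in order, beside -0.40, -0.34 and -0.31 over all genes tested. At 405 min 9 of 10 members had a fold change above 0, beside 42.5% of all genes, and RLE or no scaling turned 3 of the 9 below 0. Within the libraries of 4% or less, which hold all controls, 2 of 10 members were above 0 at 405 min, with 1 treated library (median -0.76, beside 51.3% and 0.02 over all genes) and 3 of 10 at 135 min (median -1.11, beside 33.3% and -0.53). At 45 min 7 of 10 were above 0 in that class (median 0.45, beside 46.1% and -0.07). These comparisons share the control libraries. Between times, the pooled test also called no member, where it called 0% of genes for 135 against 45 min, 0.00894% for 405 against 135 min and 0.00894% for 405 against 45 min. Left unadjusted, p was under 0.05 for Ier3 from 135 to 405 min and for Ier3 and Phlda1 from 45 to 405 min. Of all 22359 genes, 454 and 616 were under that limit in these comparisons. DESeq2 called 0 members in the between-time comparisons and at 45 and 135 min.

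Jun, the AP-1 subunit that can pair with itself, had the largest pooled log2 fold change of the members at 405 min. It was at 30.5, 68.5, 71.8 and 43.9 CPM in control replicates 1 to 4. It was at 151, 205, 92.5 and 60.9 CPM at 45 min, 312, 204, 82.4 and 70.4 CPM at 135 min, and 382, 84.5, 159 and 227 CPM at 405 min. All 4 libraries at 405 min were above all 4 controls, and in each treated group the highest values were those of the libraries over 4%. Among all genes, 2.68% had every 405 min library above every control and 7.42% had every one below. Jun was the one member above, and none was below. The log2 fold change was 2.11 ± 1.05 (SE), 2.29 ± 1.06 and 3.36 ± 1.10 for the 3 times in order, with an adjusted p of 0.418 at 405 min (edgeR). DESeq2 gave 2.19 for Jun at 405 min with an adjusted p of 0.0334, and with DESeq2 18.7% of the 1985 genes that kept an adjusted p were called. Among libraries of 4% or less alone, Jun differed from control by 0.49 ± 0.57, 0.22 ± 0.58 and 0.71 ± 0.72 on the log2 scale for the 3 times in order, with 1 treated library at 405 min.

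Phlda1, which encodes a pleckstrin homology-like domain protein, was at 73.4, 23.2, 39.3 and 19.7 CPM in controls. At 405 min it was at 273, 16.9, 65.7 and 180 CPM in replicates 1 to 4. The value of replicate 2, the library of 4% or less, was under all 4 controls, and replicates 1 and 4 were above all. The pooled log2 fold change was 3.27 ± 1.17 with an adjusted p of 0.418, and within libraries of 4% or less it was -1.14 ± 1.45. Ier3, a stress-inducible regulator of cell survival, was at 20.3, 36.0, 13.5 and 0 CPM in controls and at 139, 3.90, 4.33 and 74.0 CPM at 405 min. Replicates 1 and 4 were above all controls, while replicates 2 and 3 rested on 3 and 6 fragments. The pooled fold change was 3.23 ± 1.43 with an adjusted p of 0.473, and -2.09 ± 2.44 within libraries of 4% or less.

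Fosl1, an AP-1 subunit (Fra-1), was at 2.26, 0, 19.1 and 26.6 CPM in controls and at 66.2, 11.7, 16.6 and 6.17 CPM at 405 min. The groups overlapped, and the log2 fold change was 2.63 ± 1.61, against 0.08 ± 2.44 within libraries of 4% or less. Myc gave 115, 47.6, 66.2 and 86.7 CPM in controls and 141, 40.3, 123 and 113 CPM at 405 min, a log2 fold change of 1.66 ± 1.14. Ier5, whose product acts with heat shock factor 1, gave 1.27 ± 0.81 and Ier2 0.83 ± 1.25. Junb gave 0.15 ± 1.28, Egr1 0.05 ± 1.17 and Fos -0.97 ± 1.40. Mean CPM, without the TMM factors, was 53.7 in controls and 213 at 405 min for Jun. It was 78.9 and 105 for Myc, and 35.8 and 17.0 for Junb. Within libraries of 4% or less, Myc gave -0.89 ± 1.31, Ier5 -0.44 ± 0.92 and Ier2 -0.18 ± 1.37 at 405 min. Junb there gave -1.27 ± 1.42, Egr1 -0.64 ± 1.34 and Fos -1.40 ± 1.61. The signs for Ier2, Junb and Egr1 turned with the scaling (RLE or none), which moved the median of all genes at 405 min from -0.31 to -0.82 and -0.86.

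**Figure D2:**
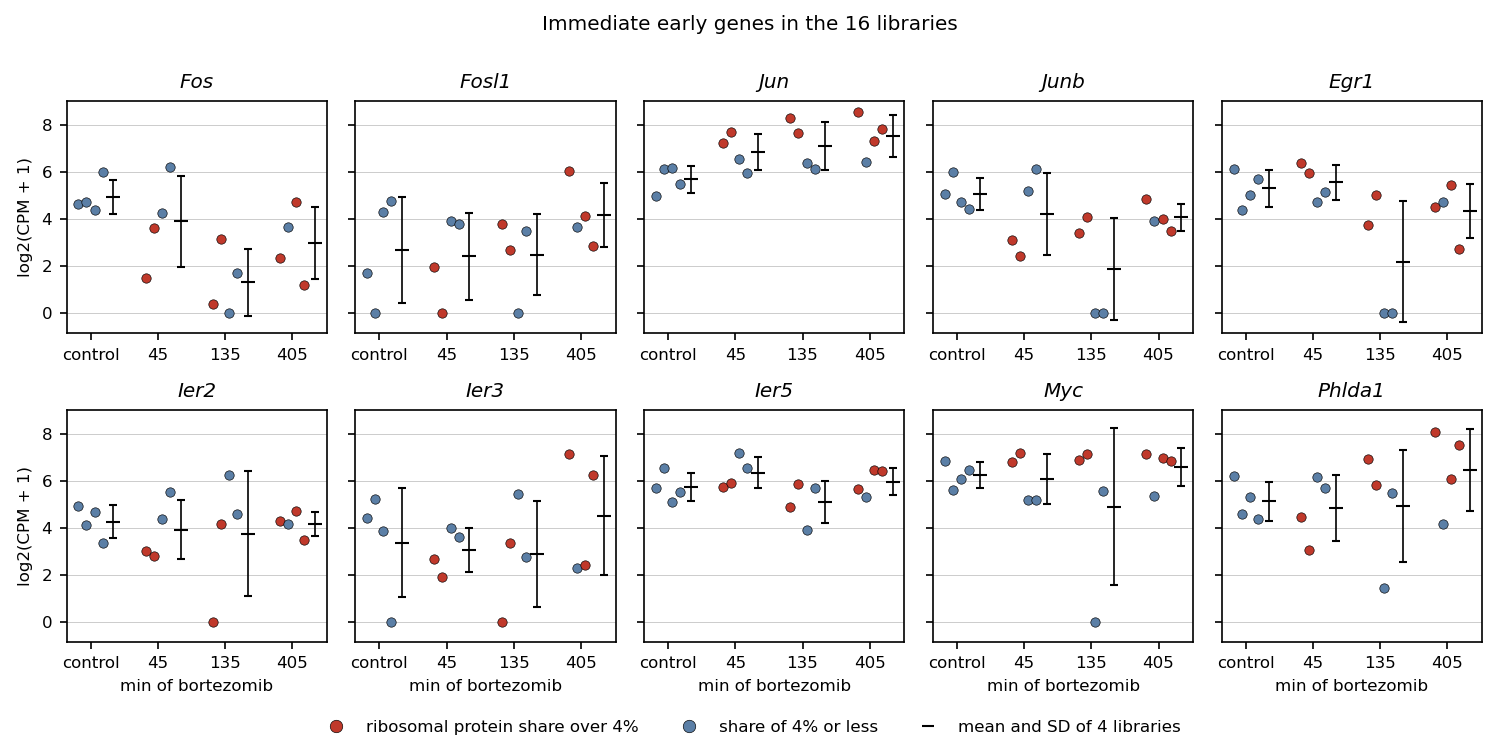
log2(CPM + 1) of each member in the 16 libraries by min of bortezomib, with the mean and SD of 4 libraries beside each group. Jun is the one member with all 4 libraries at 405 min above all controls, and red points (share over 4%) hold its higher values.

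Fos and Junb were the members with every 135 min library below every control, where 8.85% of all genes were below in this way and 0.729% above. Fos was at 23.7, 25.5, 20.2 and 63.6 CPM in controls and at 0.317, 7.98, 0 and 2.27 CPM at 135 min. Its log2 fold change was -2.86 ± 1.48 with an adjusted p of 1, and -4.72 ± 1.53 (adjusted p = 0.207) within libraries of 4% or less. Junb was at 32.8, 63.8, 25.8 and 20.8 CPM in controls and at 9.51, 15.96, 0 and 0 CPM at 135 min, a difference of -1.64 ± 1.32. At 45 min no member was above or below all controls, beside 0.698% and 4.36% of all genes. Fos also read at 1.80 and 11.5 CPM in the 45 min libraries over 4%, against 18.4 and 73.7 CPM in the other 45 min libraries.

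Within the libraries of 4% or less, which include all controls, no member passed the test, with 0% (45 min), 0.121% (135 min) and 0.00898% (405 min) of genes called. Left unadjusted, p was under 0.05 for Fos, Junb and Egr1 at 135 min and for 0 members at 45 min. Of the 22274 genes tested, 2973 and 341 were under that limit at these times. The largest differences among the members were at 135 min, where replicates 3 and 4 held 0 fragments of Junb and of Egr1. By counting error alone, a count of 0 allows up to 3 fragments, or 2.07 CPM over both libraries. That is 17.3-fold below the control mean of 35.8 CPM for Junb and 20.8-fold below that of 43.0 CPM for Egr1. These folds leave out the spread between libraries. Controls ran from 20.8 to 63.8 CPM for Junb and from 19.7 to 70.0 CPM for Egr1. The adjusted p was 0.102 for Junb and 0.0984 for Egr1. These libraries listed 47.5% and 32.8% of all genes at 0, against 6.71% to 27.7% in controls. Without 135 min replicate 3, Egr1 passed (adjusted p = 0.0441, with 2.3% of genes called), and without replicate 4 Fos, Junb, Egr1, Myc and Phlda1 passed, with 12.2% of genes called. At 45 min, Ier5 was at 146 and 92.9 CPM against 33.7 to 91.7 CPM in controls, the largest positive difference of that comparison (1.08 ± 0.66, adjusted p = 1).

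The 7 libraries over 4% allowed the treated times to be compared with each other but not with control. In this class the printed courses differed between members, and that difference was not tested. Phlda1 was at 21.0 and 7.37 CPM at 45 min, 122 and 55.0 CPM at 135 min, and 273, 65.7 and 180 CPM at 405 min. The 45 min values lay under all later ones. From 45 to 405 min its log2 fold change was 3.50 ± 0.88 with an unadjusted p of 7.077e-05 and an adjusted p of 0.0788, and from 45 to 135 min it was 2.56 ± 0.88 (adjusted p = 0.615). Ier3 was at 5.39 and 2.78 CPM at 45 min, 0 and 9.27 CPM at 135 min, and 139, 4.33 and 74.0 CPM at 405 min. Its log2 fold change was 4.04 ± 1.10 from 45 to 405 min (adjusted p = 0.133) and 4.10 ± 1.11 from 135 to 405 min (adjusted p = 0.319). By absolute value these stood at percentiles 74.1 and 97.7 of all genes tested, whose medians were 1.26 and -0.02.

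No member passed edgeR's test in this class, where 0.0135% of genes were called for 135 against 45 min, 0.0359% for 405 against 135 min and 0.0718% for 405 against 45 min. Left unadjusted, p was under 0.05 for 1, 1 and 4 members in that order, the 4 being Fosl1, Egr1, Ier3 and Phlda1. Of the 22279 genes tested, 889, 532 and 1312 were under that limit. The fit of this class had 4 residual degrees of freedom, so its p-values rest on a spread shared across genes. The calls of Ier3 and Phlda1 changed with the libraries left out. Replicate 3 of 405 min had the lowest ribosomal protein share of the 7 (4.25%) and the highest share of fragments in receptor genes (2.61%, against 0.00531% to 1.42%). Without it, Ier3 and Phlda1 passed between 45 and 405 min, at 4.595 (adjusted p = 0.00406) and 3.93 (adjusted p = 0.00206), with 0.139% of genes called. Ier3 then also passed between 135 and 405 min, at 4.64 (adjusted p = 0.00366), with 0.256% called. Without 135 min replicate 2, Ier3 passed between 135 and 405 min too (adjusted p = 0.000424, 1.92% called), against a single library in which it was at 0.

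Egr1 took the opposite course. It was at 83.7 and 61.6 CPM at 45 min (95% Clopper-Pearson intervals 79.5 to 88.0 and 55.5 to 68.1, for counting error only), 12.7 and 31.5 CPM at 135 min, and 21.6, 42.6 and 5.62 CPM at 405 min. Every later library was below both 45 min libraries. The difference was -1.902 ± 1.003 from 45 to 135 min (adjusted p = 0.615), -2.02 ± 0.88 from 45 to 405 min (adjusted p = 0.636) and -0.12 ± 0.89 from 135 to 405 min. By absolute value, the differences from 45 min stood at percentiles 56.1 (135 min) and 57.3 (405 min) of all genes tested. Egr1 was the one member below in both comparisons with 45 min, where 5.82% (135 min) and 6.76% (405 min) of all genes were below. Fosl1, Junb and Phlda1 were above both 45 min libraries at 135 min, and Fosl1, Junb, Ier2 and Phlda1 at 405 min, where 18.5% and 8.88% of all genes were above. From 135 to 405 min no member was wholly above or below, beside 2.56% and 6.87% of all genes.

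Among the AP-1 subunits, Jun stayed between 151 and 382 CPM in this class, with a log2 fold change from 45 to 405 min of 0.36 ± 0.83. Fosl1 was at 2.88 and 0 CPM at 45 min, 13.0 and 5.39 CPM at 135 min, and 66.2, 16.6 and 6.17 CPM at 405 min (4.02 ± 1.82, adjusted p = 0.636). By absolute value that change stood at percentile 73.6 of all genes tested. Junb was at 7.78 and 4.42 CPM, then 9.51 and 15.96 CPM, then 28.3, 15.2 and 10.3 CPM (1.32 ± 1.74). Fos was at 1.30 to 26.0 CPM at 405 min and overlapped with each earlier time (0.19 ± 2.5). Myc had the narrowest range of the 10 relative to its level, from 111 to 143 CPM over the 7 libraries (-0.18 ± 0.76). Ier5 was at 28.9 to 87.4 CPM (0.28 ± 0.77), and Ier2 at 5.89 and 7.13 CPM at 45 min against 10.2 to 25.3 CPM at 405 min (1.19 ± 1.88).

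**Figure D3:**
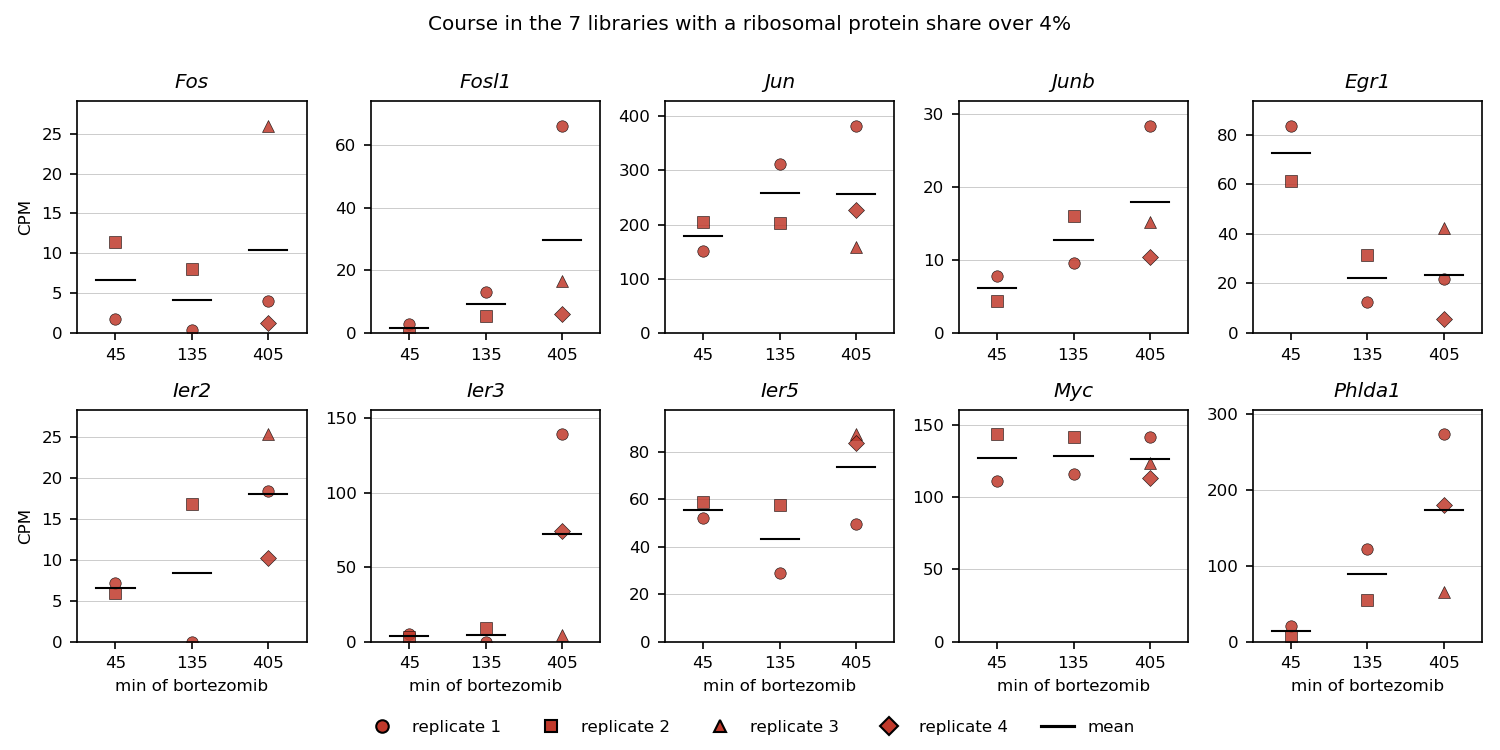
CPM of each member in the 7 libraries over 4%, by min of bortezomib, with symbols for the replicate and a line at the mean of 2, 2 and 3 libraries. Each panel has its own axis from 0. Phlda1 is higher and Egr1 lower after 45 min, and Myc stays between 111 and 143 CPM.

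**Figure D4:**
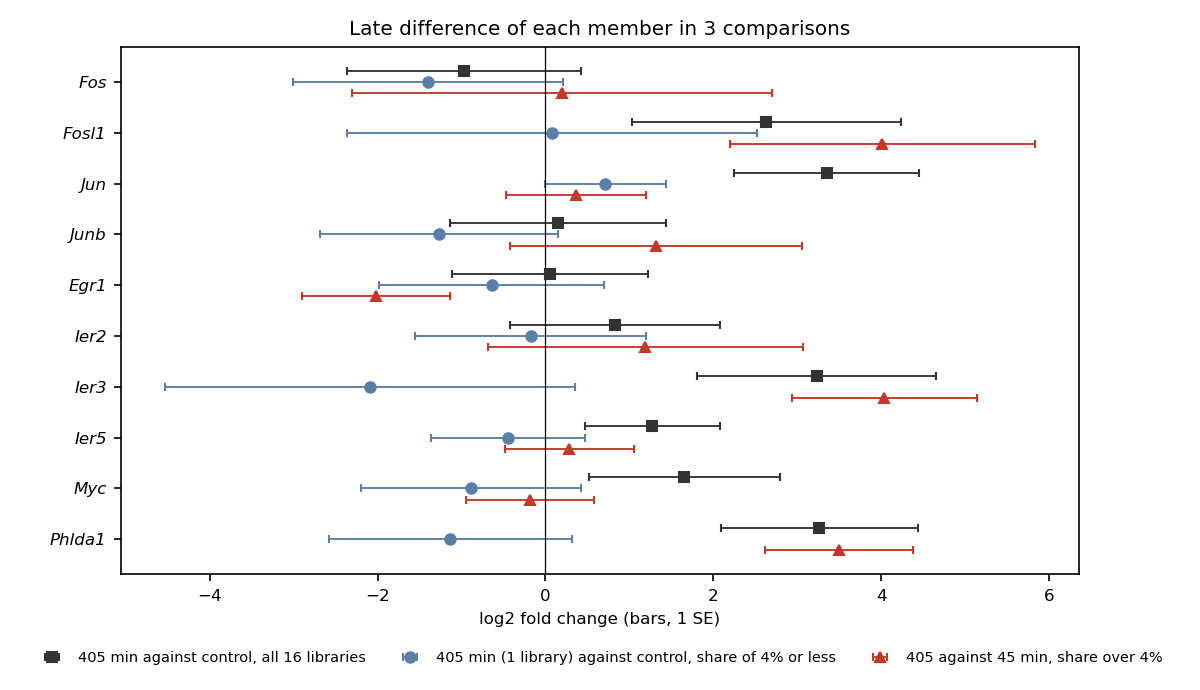
log2 fold change (points, bars of 1 SE) of each member at 405 min in 3 comparisons: against control over all libraries, against control with 1 treated library of 4% or less, and against 45 min over 4%. For Jun, the pooled difference from control is 3.36, and the other 2 are 0.71 and 0.36.

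The genes nearest to 4 members over the 7 libraries were found by the root mean square difference of centred log2(CPM + 1), among 3641 genes with at least 50 fragments in each. For Jun they were Eaf1, Sh3d19 and Zfand3 (0.196, 0.217 and 0.217), where the median gene was at 0.770. For Myc they were Fbxo28, Ppp2r5e and Pdpk1 (0.126, 0.143 and 0.154, median 0.627). For Egr1 they were Cxcl12, Gramd4 and Ctdsp2 (0.485, 0.536 and 0.557, median 1.33). Cxcl12, a chemokine, was at 82.9 and 85.8 CPM at 45 min and at 9.68 to 62.8 CPM later. For Fos the nearest genes, Ubn2, Atxn1l and Tstd2, were at 0.743 to 0.838, beside a median of 1.59.

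Of 36 other immediate early genes, 0 passed edgeR's pooled test at 405 min (6 with p left unadjusted, 0 by DESeq2), and their median log2 fold change was 0.56. Over all 22359 genes, 2064 had an unadjusted p under 0.05, and the median was -0.31. Within libraries of 4% or less, with 1 treated library, the list's median at 405 min was -0.16, beside 0.02 over all genes tested. In the libraries over 4%, 2 of the 36 passed edgeR's test from 45 to 405 min, both as rises. Both were named after their values were seen, and 23 of the 36 were above 0, beside 72.8% of all genes. Atf3, a stress-induced partner of Jun, was at 2.67 and 5.40 CPM at 45 min, 35.8 and 31.9 CPM at 135 min, and 177, 83.7 and 185 CPM at 405 min (5.13 ± 0.97, adjusted p = 0.000405). Ppp1r15a, which encodes GADD34, a phosphatase subunit acting on eIF2α, was at 8.54 and 4.58 CPM at 45 min and at 304, 9.39 and 145 CPM at 405 min (4.42 ± 0.93, adjusted p = 0.00456). As for Ier3, its value in replicate 3 was near those at 45 min. The 4 most abundant of the list, Sgk1, Zfp36l1, Klf4 and Klf6, had log2 fold changes of -1.21 ± 0.81, -0.35 ± 0.79, -0.63 ± 0.78 and 0.36 ± 0.77.

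Of 20 genes for AP-1, CREB and Myc partners, 0 passed edgeR's test at 405 min against control (3 with p left unadjusted, 0 by DESeq2) or against 45 min over 4% (1 with p left unadjusted). Atf2, Creb1, Nab1 and Atf1 had log2 fold changes from 45 to 405 min over 4% of -0.06, -0.25, -0.95 and -0.46, with SEs of 0.75. Of 24 tested receptor, MAP kinase and serum response factor genes, 1 passed edgeR's test in that comparison, Pdgfrb, also named after its values were seen. It encodes a growth factor receptor and was lower at 405 min (-3.35 ± 0.78, adjusted p = 0.0261). It was at 191 and 307 CPM at 45 min and 15.9 to 45.7 CPM at 405 min. Mkl2, Braf and Pdgfra gave 0.61, 0.28 and -1.04. Of 18 delayed AP-1 target genes, 0 passed edgeR's test there, 0 also with p left unadjusted, and the median was 0.87 beside 1.26 over all genes tested. In the pooled test against control at 405 min, 0 of the 18 passed (4 with p left unadjusted, 1 by DESeq2), 15 were above 0, and the median was 1.60. Over all 22359 genes, 2064 had an unadjusted p under 0.05, DESeq2 called 372, 42.5% were above 0, and the median was -0.31. Within libraries of 4% or less, with 1 treated library, 10 of the 18 were above 0 with a median of 0.10, beside 51.3% and 0.02 over all genes. From 45 to 405 min over 4%, Ccl2 gave 1.58 ± 1.30, Vegfa 0.88 ± 0.82, Cd44 -0.03 ± 0.76 and Odc1 0.87 ± 0.79.

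Heat shock genes served as a reference, since proteasome inhibition is known to induce them. In the libraries over 4%, all 8 had a log2 fold change above 0 from 45 to 405 min, beside 72.8% of all genes. Of the 8, 5 had an unadjusted p under 0.05, beside 1312 of 22279 genes. The test was passed by 2, both named after their values were seen, Hspa1a (8.30 ± 1.16, adjusted p = 4.217e-09) and Dnajb1 (4.32 ± 0.99, adjusted p = 0.0214). Hspa1a was at 0 and 1.15 CPM at 45 min and at 493, 16.6 and 53.3 CPM at 405 min, so its fold change is against values near 0. Dnajb1 was at 18.8 and 20.5 CPM at 45 min and at 797, 89.5 and 400 CPM at 405 min. The list's median was 3.24, against 0.78 for the 10 immediate early genes and 1.26 for all genes tested. In edgeR's pooled test at 405 min, 0 of the 8 passed (7 with p left unadjusted, 6 by DESeq2). Their median was 6.30, beside -0.31 over all genes tested. Within libraries of 4% or less, with 1 treated library, the list's median at 405 min was 1.80, beside 0.02 over all genes tested. Hsp90aa1, Hspa8, Hspa1b and Hsph1 gave pooled log2 fold changes of 6.84 ± 2.55, 7.83 ± 2.75, 8.23 ± 2.12 and 7.71 ± 1.98, each with an adjusted p of 0.418. The classes already differed at 45 min. Over 4%, Hsp90aa1 was then at 2659 and 3193 CPM, Hspa8 at 4571.5 and 1185 CPM and Hsph1 at 366 and 110 CPM. In the other 45 min libraries they were at 135 and 125, 107 and 122, and 43.5 and 75.3 CPM in that order. The part of the class in the pooled values was not tested. Within libraries of 4% or less, Hspa1b passed at 405 min (5.36 ± 0.56, adjusted p = 0.00112), a test with 1 treated library that is assumed to vary like the other groups. It was at 1292 CPM in the treated library against 19.7 to 48.8 CPM in controls. The same library had Jun at 84.5 CPM against 30.5 to 71.8 CPM in controls.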

How the data were processed

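RNA-seq was analysed from 16 libraries of 4 groups, set by the sample titles. The labels name a NuGEN Encore Complete kit and the mm10 build, while the study's methods state alignment to mm9 and analysis against RefSeq on DNAnexus. The aligner's name and version are not given in the sources used here. The authors deposited estimated counts in the form of unscaled fragments per gene. The authors also deposited FPKM values, scaled by length and depth. Of the counts, 98.9% to 99.8% per library were whole (within 0.01), and all were rounded. In the library of 45 min replicate 1, date-like entries had replaced 27 symbols, which were restored from the row order. No pair of libraries was identical (0 of 120).

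Totals were 570323 to 19930375 fragments, and intervals and the 3-count floor cover counting error only. Genes at 0 in all libraries were left out, unlike the study's filter, which would keep 3 of the 10 members. The main test was edgeR 4.0.16 (R 4.3.3), quasi-likelihood, TMM, 1 mean per group, all libraries, Benjamini-Hochberg at 0.05. SE is the log2 fold change over the square root of F. Classes with a ribosomal protein share over or up to 4% were also fitted alone. Alternatives were 2 other filters, RLE or no scaling, DESeq2 1.42.0, edgeR's exact test, only the groups compared, the share as covariate, thinning to 570323 fragments, the replicate block and leaving out each library. Leaving out libraries within a class was chosen after seeing the data. The members and lists were chosen with earlier results of these data known. The text names all members, the 4 most abundant genes of each list and the 3 genes nearest to Fos, Jun, Egr1 and Myc. Of these, 1 gene is not reported here. Atf3, Ppp1r15a, Pdgfrb, Hspa1a and Dnajb1 were named after their values were seen, because they passed the test.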

Additional observations from a re-analysis of the deposited data

How the results depend on the processing

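Fold changes below are on the log2 scale. Of 1398 values of single members under the alternatives, 139 had the opposite sign to the main value and 11 passed the threshold, where no main value did. None of the 139 passed the threshold in either fit. The cause of a turned sign was not tested. The opposite signs were these. With no scaling, Ier2 -0.053 and Phlda1 -0.059 (45 min against control), Myc -0.046 (135 min against control), Junb -1.07, Egr1 -0.85 and Ier2 -0.17 (405 min against control), Fosl1 -0.024 (135 min against 45 min), Ier2 -0.69 (405 min against 135 min) and Junb -0.77, Ier2 -0.12 and Ier5 -0.42 (405 min against 45 min). With the ribosomal protein share as covariate, Egr1 -0.65, Myc -1.09 and Phlda1 -0.059 (45 min against control), Fosl1 0.042 and Myc -1.41 (135 min against control), Junb -0.999, Egr1 -1.91 and Myc -0.85 (405 min against control) and Junb -0.82 and Ier5 -0.25 (405 min against 45 min). With thinning, Ier2 -0.0032 (45 min against control), Ier3 0.12 (135 min against control), Junb -0.25 and Egr1 -0.35 (405 min against control), Ier2 -0.052 (405 min against 135 min) and Ier5 -0.048 (405 min against 45 min). With libraries of 4% or less alone, Fos 0.43, Fosl1 0.20, Junb 0.48, Egr1 -0.52 and Myc -1.18 (45 min against control), Ier3 0.034, Myc -1.86 and Phlda1 -0.89 (135 min against control) and Junb -1.27, Egr1 -0.64, Ier2 -0.18, Ier3 -2.09, Ier5 -0.44, Myc -0.89 and Phlda1 -1.14 (405 min against control). With only the groups compared, Ier5 0.065 (135 min against control). With filterByExpr, Egr1 -0.0032 (405 min against control). With RLE factors, Junb -0.92, Egr1 -0.79 and Ier2 -0.054 (405 min against control), Ier2 -0.51 (405 min against 135 min) and Junb -0.68, Ier2 -0.082 and Ier5 -0.37 (405 min against 45 min). With DESeq2, Junb -0.92, Egr1 -0.79 and Ier2 -0.055 (405 min against control), Ier2 -0.50 (405 min against 135 min) and Junb -0.66, Ier2 -0.068 and Ier5 -0.37 (405 min against 45 min). With libraries over 4% alone, Junb 0.90 and Ier3 -0.054 (135 min against 45 min), Jun -0.062, Egr1 -0.12 and Myc -0.051 (405 min against 135 min) and Fos 0.19 and Myc -0.18 (405 min against 45 min). With the study's filter, Ier5 -0.24 (405 min against 45 min). DESeq2 called Jun at 405 min against control (2.19), and under the other alternatives over all libraries no member was called.

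The replicate block turned Junb 0.31 (45 min against control), Fosl1 0.72 and Myc -0.17 (135 min against control), Egr1 -0.16 (405 min against control) and Junb -0.20 (405 min against 45 min). It changed no member's call and moved no count of calls by over 1.5 times. Same-numbered libraries deviated from their group means with correlations of -0.62 to 0.54 (mean 0.047), against a mean of -0.015 for other pairs. The 2 classes of libraries do not follow the replicate numbers. For 45 min replicate 1 the correlation was 0.855 with 405 min replicate 4, of its class, and -0.779 with 405 min replicate 2, of the other. These correlations therefore cannot decide whether the numbers pair the libraries, and the main test used no pairing.

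The counts of called genes moved as follows. For 45 min against control (0 with the main test), 348 with DESeq2. For 135 min against control (0 with the main test), 27 with libraries of 4% or less alone and 4 with DESeq2. For 405 min against control (1 with the main test), 0 with the study's filter, 3 with no scaling, 5 with the ribosomal protein share as covariate, 2 with libraries of 4% or less alone, 5 with edgeR's exact test and 372 with DESeq2. For 135 min against 45 min (0 with the main test), 3 with libraries over 4% alone. For 405 min against 135 min (2 with the main test), 0 with the study's filter, 1 with filterByExpr, 4 with the ribosomal protein share as covariate, 1 with thinning, 6 with only the groups compared, 8 with libraries over 4% alone, 4 with edgeR's exact test and 4 with DESeq2. For 405 min against 45 min (2 with the main test), 0 with the study's filter, 7 with the ribosomal protein share as covariate, 0 with only the groups compared, 16 with libraries over 4% alone, 4 with edgeR's exact test and 6 with DESeq2. Leaving out 1 library in turn gave counts of 1 to 5 for 405 min against 135 min (2 with every library), 1 to 3 for 405 min against 45 min (2 with every library), 0 to 281 for 135 min against 45 min in libraries with a share over 4% (3 with every library), 4 to 426 for 405 min against 135 min in libraries with a share over 4% (8 with every library), 4 to 54 for 405 min against 45 min in libraries with a share over 4% (16 with every library), 0 to 2718 for 135 min against control in libraries with a share of 4% or less (27 with every library) and 1 to 4 for 405 min against control in libraries with a share of 4% or less (2 with every library). A count of 0 was that of the adjusted test.

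Leaving out 1 library in turn, the members whose sign or call changed ran as follows. 45 min against control, Fos -0.99 to 0.29, Fosl1 -1.02 to 0.13, Junb -0.84 to 0.26, Ier2 -0.34 to 0.40 and Phlda1 -0.16 to 0.69. 135 min against control, Fosl1 -0.80 to 0.59, Ier2 -0.22 to 0.90, Ier3 -1.27 to 0.29 and Ier5 -0.59 to 0.35. 405 min against control, Junb -0.83 to 0.63 and Egr1 -0.35 to 0.42. 135 min against 45 min, Fosl1 -0.25 to 0.93, Jun -0.48 to 0.85, Ier2 -0.36 to 0.83, Ier3 -0.50 to 0.82 and Myc -0.90 to 0.42. 405 min against 135 min, Ier2 -0.12 to 1.05. 405 min against 45 min, Fos -1.45 to 0.015, Junb -0.60 to 0.98 and Ier5 -0.064 to 0.50. 135 min against 45 min in libraries with a share over 4%, Fos -4.36 to 0.97, Jun -0.22 to 0.80, Ier2 -9.16 to 1.10, Ier3 -8.49 to 0.90 and Myc -0.83 to 0.090. 405 min against 135 min in libraries with a share over 4%, Fos -0.54 to 4.55, Jun -0.44 to 0.44, Egr1 -0.71 to 0.50, Ier3 3.13 to 12.53 and Myc -0.23 to 0.097. 405 min against 45 min in libraries with a share over 4%, Fos -1.48 to 2.11, Ier3 3.51 to 4.82, Ier5 -0.14 to 0.56, Myc -0.36 to 0.039 and Phlda1 2.95 to 4.598. 45 min against control in libraries with a share of 4% or less, Fos -0.79 to 1.09, Fosl1 -0.21 to 0.86 and Ier3 -0.88 to 0.18. 135 min against control in libraries with a share of 4% or less, Fos -7.86 to -3.89, Junb -8.23 to -7.58, Egr1 -8.50 to -7.91, Ier3 -1.77 to 0.82, Myc -9.12 to -0.89 and Phlda1 -4.75 to 0.043. 405 min against control in libraries with a share of 4% or less, Fosl1 -0.33 to 0.74 and Ier2 -0.43 to 0.068. A large fitted value such as 12.53 is against libraries at 0 and is no bound. Within a class, a time with 1 library left is assumed to vary like the others. In the libraries of 4% or less, 9 of 90 member values were 0, 7 of them in 135 min replicates 3 and 4.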
